A study of Rattus norvegicus with 8 samples.

Results

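TRP channels are cation channels of the cell surface and of inner membranes, and the polycystins are their relatives in the primary cilium. The list held 8 genes, taken by symbol from a table of 13613 genes. They were the vanilloid members Trpv2 and Trpv4, the canonical members Trpc1 and Trpc6, the melastatin members Trpm4 and Trpm7, and the polycystin genes Pkd1 and Pkd2. Of these, 7 had a row, and Trpc6 was not analysed here. All 7 passed the filter on low reads that left 12383 genes for testing. The genes were selected on symbol, from a list drawn up with the fold changes and adjusted p of this same comparison known. The values of its members are therefore a description, and their p-values are no independent evidence.

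The data came from 8 RNA sequencing libraries of primary rat nucleus pulposus cells, which fill the soft centre of the disc between vertebrae. In 4 libraries they had been transduced with an shRNA against TonEBP (ShTon_NaCl), and in the other 4 with a control (PLKO1_NaCl). TonEBP, the product of Nfat5, is a transcription factor that turns on protective genes in high salt. All cultures, control ones included, were kept in medium with an extra 110 mM NaCl for 8 h. Each of Sets 1 to 4 gave 1 library to each group. The design compares less with more TonEBP in salt and holds no culture at normal salt. The cells were expanded from explants and the labels do not say which animals they came from or what a Set is, so p-values measure the spread between these libraries. The libraries held between 9567488 and 15782202 reads on the listed genes. Nfat5 measured 1094, 872, 459 and 414 normalized counts in knockdown libraries 1 to 4, against 1682, 2332, 1677 and 942 in control libraries 1 to 4. It was lower in all 4 Sets, and the groups overlapped. Its log2 fold change was -1.27 in limma (adjusted p 0.378, and 0.0591 once blocked by Set). In blocked DESeq2 its adjusted p was 9.66e-06. Of 12 marker genes of nucleus pulposus or chondrocyte-like cells, 9 were measured, and Acan, T and Krt19 had no row. The 9 differed among themselves. Car3 lay between 23.2 and 15939 normalized counts in knockdown and between 132 and 11125 in control libraries, Krt8 between 98.1 and 725 in knockdown and between 77.1 and 865 in control libraries, and Foxf1 between 180.2 and 240.1 in knockdown and between 154 and 262 in control libraries. The chondrocyte genes were scarce, with Col2a1 between 0.967 and 4.87 normalized counts in knockdown and between 0 and 8.76 in control libraries, and Sox9 between 3.22 and 12.2 in knockdown and between 0 and 29.2 in control libraries. The fibroblast collagen gene Col1a1 lay between 11516 and 52472 in knockdown and between 4196 and 23595 in control libraries.

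TRP channels open in response to stretch, temperature, lipids or signals from surface receptors, and most let calcium into the cell. Trpv4 is best known as a sensor of cell swelling and load in cartilage cells, where it turns osmotic and mechanical stimuli into calcium signals. Polycystin 1, a very large membrane protein, pairs with the channel polycystin 2, and mutations in either gene cause polycystic kidney disease. Trpv2, Trpv4 and Trpm4 were higher in the knockdown library of all 4 Sets, Pkd2 was lower in all 4, and Trpc1, Trpm7 and Pkd1 did not keep 1 direction. Among all genes tested, 17.0% were higher in all 4 Sets and 16.2% lower in all 4.

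The start regions of the genes are shown because TonEBP, which the hairpin targets, binds DNA. RefSeq promoters of assembly GRCr8 were matched for 7 of the 8 listed genes, all but Trpc1. Over the 250 bases before the start, 2 short motifs are in capitals on either strand. They are TGGAAA, the core letters of the tonicity element that TonEBP binds, and GGGCGG, the GC box. The first 3 sequences belong to the genes higher in all 4 Sets, and the last to Pkd2.
Trpv2, chr10:47771973-47772222, plus strand: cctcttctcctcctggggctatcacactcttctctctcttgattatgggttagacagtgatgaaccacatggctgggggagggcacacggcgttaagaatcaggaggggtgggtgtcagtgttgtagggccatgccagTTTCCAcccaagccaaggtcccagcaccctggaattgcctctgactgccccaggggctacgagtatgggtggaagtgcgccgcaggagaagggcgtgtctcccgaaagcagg
Trpv4, chr12:47598938-47599187, plus strand: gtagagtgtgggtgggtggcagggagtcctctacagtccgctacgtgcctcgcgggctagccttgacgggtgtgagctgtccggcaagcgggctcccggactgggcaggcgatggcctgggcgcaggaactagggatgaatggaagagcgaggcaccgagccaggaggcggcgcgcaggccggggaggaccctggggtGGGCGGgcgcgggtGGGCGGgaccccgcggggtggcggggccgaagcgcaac
Trpm4, chr1:104948237-104948486, minus strand: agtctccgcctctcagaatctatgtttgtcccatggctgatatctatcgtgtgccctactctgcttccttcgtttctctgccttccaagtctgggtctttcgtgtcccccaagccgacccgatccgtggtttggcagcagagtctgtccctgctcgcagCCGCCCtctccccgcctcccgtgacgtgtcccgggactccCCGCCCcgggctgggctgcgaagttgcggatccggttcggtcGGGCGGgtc
Pkd2, chr14:5585141-5585390, minus strand: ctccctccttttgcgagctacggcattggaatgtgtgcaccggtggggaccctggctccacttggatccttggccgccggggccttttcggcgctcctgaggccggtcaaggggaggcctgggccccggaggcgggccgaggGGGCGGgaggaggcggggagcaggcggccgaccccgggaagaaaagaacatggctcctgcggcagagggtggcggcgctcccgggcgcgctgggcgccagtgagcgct
TGGAAA was found in 1 of the 7 promoters, that of Trpv2, and in 19.7% of 33469 promoters of the same length. There it lies on the opposite strand, from 112 to 107 bases before the start. GGGCGG was found in 5 of the 7, those of Trpv4, Trpm4, Trpm7, Pkd1 and Pkd2, and in 30.5% of all promoters. TATAAA was found in 0 of the 7 and in 12.9% of all. The motifs did not overlap each other. The Trpv2 window differed from the other 6 in base composition, with 7 CpG pairs and 58.4% G and C, where those of the other members held 16 to 29 CpG pairs and up to 72.8% G and C. Over all promoters the medians were 5 CpG pairs and 51.2%. A match is a description of letters and no sign of binding.

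Trpv2 encodes a stretch- and lipid-sensitive calcium channel that moves to the cell surface after growth factor signals. Its normalized counts, which are reads divided by a factor for each library, were 287, 307, 314 and 2006 in knockdown libraries 1 to 4, against 137, 99.7, 140.5 and 683 in control libraries 1 to 4. Both libraries of Set 4 stood far above the others, and within each Set the knockdown library was the higher. The groups overlapped, because control library 4 lay above knockdown libraries 1 to 3. Within Sets 1 to 4 the knockdown held 2.10, 3.08, 2.24 and 2.94 times the control count. The means were 729 ± 851 in knockdown and 265 ± 279 in control cells (SD, n = 4). In limma on log2(normalized count + 1), the log2 fold change was 1.35 ± 0.78 (standard error). Blocking by Set brought this error to 0.15. Of all genes tested, 99.0% had a log2 fold change no higher than that of Trpv2. In the RefSeq annotation of rat assembly GRCr8 Trpv2 overlaps the locus LOC120095326 and small nucleolar RNA genes, and how reads of such overlaps were counted is not given in the sources used here.

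Trpv4 was measured at 50.5, 136, 258 and 143 normalized counts in knockdown libraries 1 to 4, against 25.4, 102, 139 and 45.4 in control libraries 1 to 4. The order of the Sets differed from that of Trpv2: Set 3 was the highest and Set 1 the lowest in both groups, and the groups overlapped. The knockdown held 1.99, 1.33, 1.85 and 3.14 times the control count in Sets 1 to 4, so the size of the difference changed more between Sets than that of Trpv2. The means were 147 ± 85.3 in knockdown and 78.1 ± 52.2 in control cells (SD, n = 4). The log2 fold change was 0.97, with a limma standard error of 0.63, or 0.24 when blocked by Set. The counts rested on between 29 and 267 reads a library.

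Trpm4 encodes a channel that calcium opens but that lets only monovalent ions through, which depolarises the cell. It measured 339, 330.1, 356 and 640.3 normalized counts in knockdown libraries 1 to 4, against 227, 225, 238 and 380 in control libraries 1 to 4. Sets 1 to 3 were nearly level within each group, with Set 4 above them, and the groups overlapped through control library 4 alone. The ratio was close to the same in every Set, at 1.49, 1.47, 1.50 and 1.69 times the control count. The means were 416 ± 150 in knockdown and 267 ± 75.2 in control cells (SD, n = 4). The log2 fold change was 0.62, with a limma standard error of 0.27, or 0.12 with the block. The SD of its log2 difference over the 4 Sets was 0.092, and 3.70% of genes tested had a lower one.

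**Figure D1:**
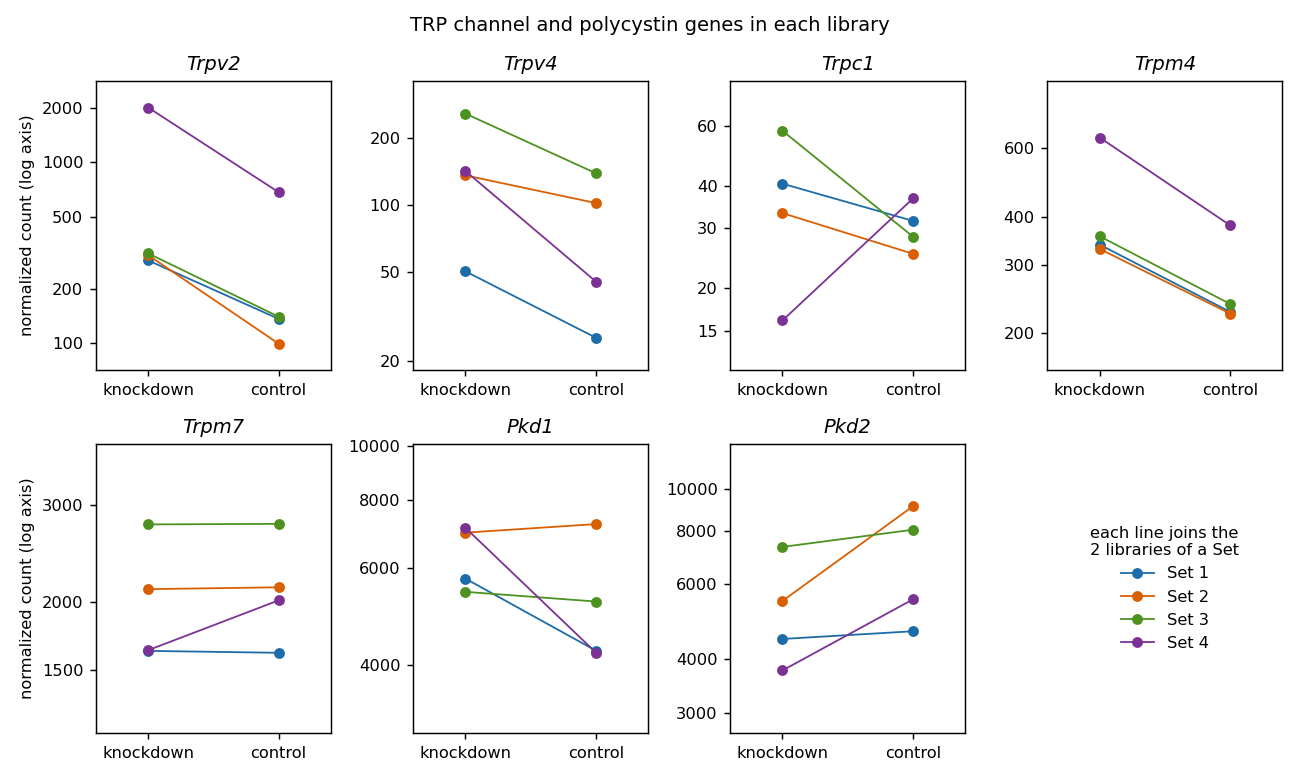
Normalized counts (log axis, with its own range in each panel) of the 7 measured genes in the knockdown and control libraries, with a line joining the libraries of each Set. The knockdown end lies above the control end in all 4 Sets for Trpv2, Trpv4 and Trpm4 and below it in all 4 for Pkd2, and Set 4 stands above the rest for Trpv2 and Trpm4.

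Whether these 3 genes were called depended on the test. Limma without the Set called 0 of the 7 members, with adjusted p of 0.631 for Trpv2, 0.687 for Trpv4 and 0.532 for Trpm4, and it called 0.00808% of all genes (1 of 12383). At an unadjusted p under 0.05 limma passed 0 of the 7, against 9.5% of all genes. With the Set as a block limma called 0 of the 7 and 0 of all 12383 genes, and the adjusted p was 0.0578 for Trpv2, 0.0979 for Trpv4 and 0.0744 for Trpm4. At an unadjusted p under 0.05 this blocked fit passed 4 members, these 3 and Pkd2, against 23.1% of all genes. EdgeR on the recovered reads called 0 members without the block, against 0.00808% of all genes, and 0 with it, against 0 of all 12383 genes. DESeq2 without the block called 0 of the 6 members for which it gave an adjusted p, against 1.43% of all genes. It gave no adjusted p for Trpv2.

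DESeq2 with the Set as a block called 3 of the 7, all as higher, at adjusted p of 9.51e-10 for Trpv2, 0.0168 for Trpv4 and 0.00428 for Trpm4. That fit called 4.31% of all genes as higher, 5.45% as lower and 9.76% in either direction. The authors' deposited table lists the same 3 as higher at an adjusted p under 0.05, with log2 fold changes of 1.25 for Trpv2, 0.80 for Trpv4 and 0.58 for Trpm4 and adjusted p of 1.04e-09, 0.0166 and 0.00412. The authors' deposited table lists 4.09% of its genes as higher, 5.22% as lower and 9.31% in either direction. Without both libraries of Set 4, where Trpv2 and Trpm4 stood apart, DESeq2 with the block called Trpv2 alone (adjusted p 0.000320), with 0.202 for Trpv4 and 0.157 for Trpm4. The log2 fold changes of that fit were 1.28, 0.76 and 0.58, and it called 1.72% of all genes as higher.

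The polycystin genes had log2 fold changes of opposite sign. Neither was called by limma, edgeR or DESeq2, with or without the block, or in the authors' deposited table. Pkd2, the channel subunit, measured 4463, 5479, 7327 and 3768 normalized counts in knockdown libraries 1 to 4, against 4652, 9123, 8038 and 5526 in control libraries 1 to 4. The knockdown library was the lower in each Set, by little in Sets 1 and 3, where it held 0.959 and 0.912 of the control count, and by more in Sets 2 and 4, where it held 0.601 and 0.682. The groups overlapped over most of their range. The means were 5259 ± 1547 in knockdown and 6835 ± 2094 in control cells (SD, n = 4). In limma the log2 fold change was -0.37, the standard error 0.28 and the adjusted p 0.746. With the block limma gave an adjusted p of 0.214, and the authors' deposited table gives -0.34 and 0.197.

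Pkd1, the large partner, measured 5752, 6969, 5440.3 and 7116 normalized counts in knockdown libraries 1 to 4, against 4253, 7224, 5224 and 4219 in control libraries 1 to 4. The knockdown held 1.35 and 1.69 times the control count in Sets 1 and 4, but the libraries of Sets 2 and 3 were close to level, at 0.965 and 1.04 times. In limma the log2 fold change was 0.30, the standard error 0.21 and the adjusted p 0.712, or 0.321 with the block. In the RefSeq annotation of rat assembly GRCr8 Pkd1 overlaps Tsc2, a growth control gene. The counter's use of strand is not given in the sources used here, so reads of the overlap cannot be told apart. Tsc2 averaged 1226 ± 191 in knockdown and 1117 ± 313 in control cells (SD, n = 4).

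Trpm7 encodes a channel for magnesium, zinc and calcium that is fused to a protein kinase. It measured 1628, 2109.5, 2769 and 1632 normalized counts in knockdown libraries 1 to 4, against 1615, 2126, 2775 and 2013 in control libraries 1 to 4. The ratio of knockdown to control was 1.01, 0.992 and 0.998 in Sets 1 to 3 and 0.811 in Set 4. The Sets themselves spread from 1615 to 2775, a wider spread than any difference within a Set. In limma the log2 fold change was -0.076, the standard error 0.23 and the adjusted p 0.961, and with the block the standard error was 0.11. It was above 0 without control library 3 (0.059), knockdown library 1 (0.019) or knockdown library 4 (0.018).

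Trpc1, a subunit of channels that open after receptor signals and store emptying, was close to the depth limit, with 15 to 60 reads a library. It measured 40.6, 33.3, 58.0 and 16.1 normalized counts in knockdown libraries 1 to 4, against 31.5, 25.2, 28.3 and 36.7 in control libraries 1 to 4. The knockdown was higher in Sets 1 to 3 and lower in Set 4. In Set 4 the knockdown count came from 15 reads, with an exact 95% Poisson interval of 8.40 to 24.7, and the control count from 38 reads, with an interval of 26.9 to 52.2. These intervals cover counting error only. In limma the log2 fold change was 0.15, the standard error 0.41 and the adjusted p 0.956, and it was -0.11 when knockdown library 3 was left out and 0.58 when Set 4 was.

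**Figure D2:**
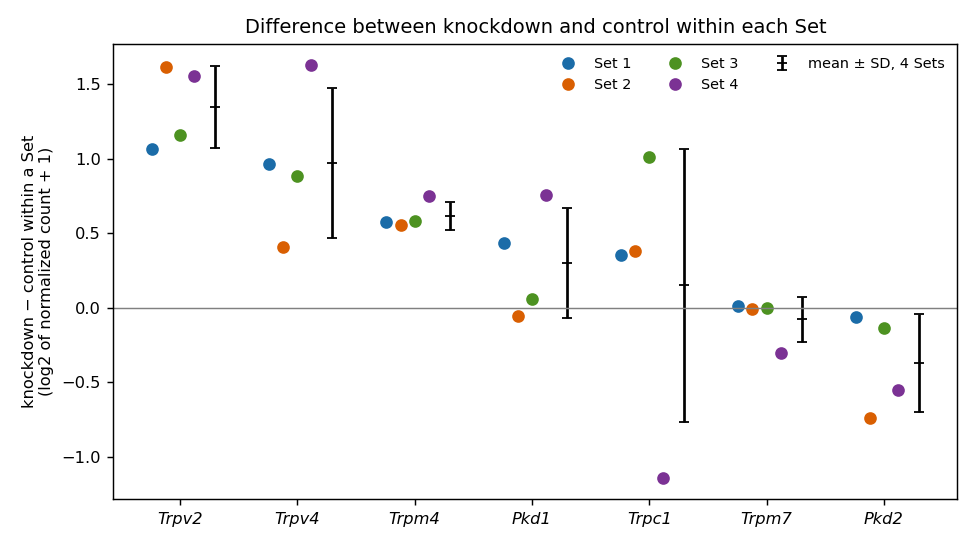
Knockdown minus control difference of log2(normalized count + 1) within each Set (coloured points) for the 7 measured genes, with the mean and SD over the 4 Sets in black. The 4 points lie above 0 for Trpv2, Trpv4 and Trpm4 and below 0 for Pkd2, while those of Trpc1 run from -1.14 to 1.01.

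The Set carried most of the variation of 5 of the 7 genes, and for all 7 it carried more than the group did. Over the 8 libraries the Set took 93.6% of the sum of squares of Trpm7, 73.0% of Trpv2, 72.6% of Trpv4, 69.1% of Pkd2 and 56.6% of Trpm4, against a median of 64.3% over all genes tested. The group took 42.7% for Trpm4, 26.2% for Trpv2, 25.9% for Pkd1, 22.8% for Trpv4, 19.5% for Pkd2, 2.40% for Trpc1 and 1.62% for Trpm7, against a median of 10.3%. For Trpc1 66.1% was left to neither, against a median of 15.7%. Among control libraries alone, the highest held 6.86 times the lowest for Trpv2 and 5.48 times for Trpv4, but between 1.45 and 1.96 times for the other members.

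**Figure D3:**
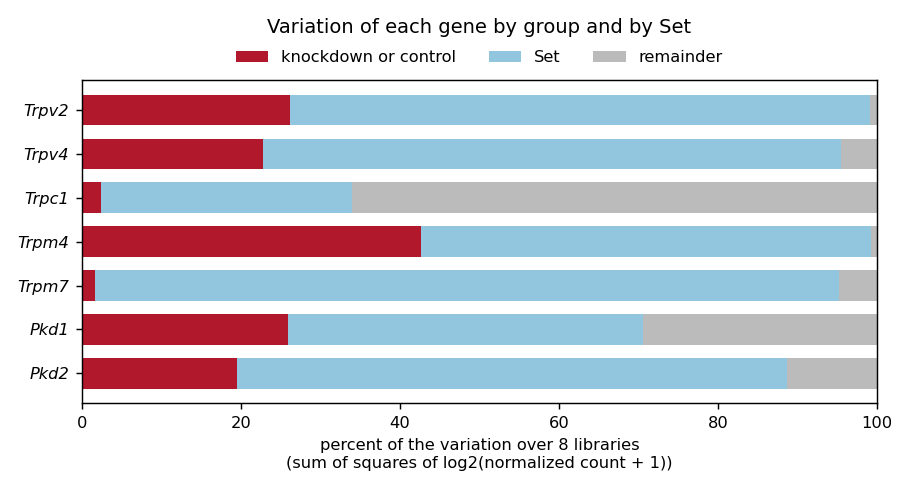
Share of the variation of each measured gene over the 8 libraries, as the percent of the sum of squares of log2(normalized count + 1), that lay between knockdown and control, between Sets, and in neither. Trpm4 had the largest share by group of the 7, at 42.7%, and Trpc1 the largest remainder, at 66.1%.

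Levels are not compared between genes, because transcript lengths were not used here. Across libraries, Trpv2 and Trpm4 had a Pearson correlation of 0.979 of log2(normalized count + 1) over the 8 libraries, which share 4 Sets. Their differences within Sets were less alike: the ratio of knockdown to control in Set 2 was the highest of the 4 for Trpv2 and the lowest of the 4 for Trpm4. The correlation with Nfat5 was -0.884 for Trpm4, -0.829 for Trpv2, -0.490 for Trpv4, -0.174 for Pkd1, -0.0808 for Trpc1, 0.00796 for Trpm7 and 0.465 for Pkd2. In each group the library of Set 4 had the least Nfat5 and the most Trpv2 and Trpm4. These are descriptions over libraries that share Sets and that hold both groups. Nfat5 was lower in the knockdown of all 4 Sets, so a gene that differed between the groups correlates with it through the group as well. Trpv4 had a correlation of 0.174 with Trpv2. Trpm7 and Pkd2 had one of 0.819 with each other, and Pkd1 and Pkd2 one of 0.0792. Of 9443 candidate genes (9444 for Trpc1) with a mean of at least 100 normalized counts, the 2 most like Trpv2 were Tcf25 (0.986) and Trpm4. Those most like Trpm4 were Gnai2 (0.989), a G protein subunit gene, and Trpv2. Those most like Trpv4 were Zdhhc2 and Brpf1 (0.991 and 0.989), those most like Trpm7 were Dek and Egfr (0.978 and 0.964), and those most like Pkd2 were Ccdc6 and Trabd (0.977 and 0.955). For Pkd1 they were Plod1 and Pim1 (0.948 and 0.934), and for Trpc1 Arhgef5 and Tmem97 (0.936 and 0.926).

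Trpv2 is also known from macrophages, so leukocyte markers are set beside it. Of 14 such markers 8 were measured. Their summed normalized counts ran from 413 to 789 in knockdown and from 585 to 1010.2 in control libraries, and in Set 4, where Trpv2 was highest, they were 660 in the knockdown and 585 in the control library. Cd14 made up much of the sum. Cd68 lay between 14.5 and 96.9 in knockdown and between 19.9 and 213 in control libraries, was lower in all 4 Sets and was called lower by blocked DESeq2 (adjusted p 0.0212). Csf1r lay between 6.77 and 156 in knockdown and between 1.93 and 214 in control libraries, and Cd74 between 1.93 and 233 in knockdown and between 2.46 and 245 in control libraries. Emr1, which was below the filter on low reads, was at 0 in every knockdown library and between 0 and 10.6 in control libraries. Itgam and Mrc1, also below that filter, had lower means in knockdown. Fcer1g, below it too, had a higher one, at 4.64 in knockdown and 2.53 in control libraries. Summed markers of nucleus pulposus or chondrocyte-like cells ran from 890 to 16417 in knockdown and from 588 to 11627 in control libraries. They were lowest in Set 4 in both groups, and nearly as low in Set 3, at 1087 in the knockdown and 1300.1 in the control library. Car3 made up most of the highest sums, at up to 15939 in knockdown and 11125 in control libraries. Fibroblast markers, 8 of 9 measured, summed to 97428, 171680, 27001 and 192597 in knockdown libraries 1 to 4, against 53595, 111574, 24519 and 135175 in control libraries 1 to 4. Their sum was higher in the knockdown of each Set and highest in Set 4 in both groups, but its members went both ways. Of the 8 fibroblast markers 5 had a log2 fold change above 0 and 3 below, and the median difference within Set 3 was -0.52. Of these 8, 2 (Col1a1 and Col1a2) were higher in all 4 Sets, beside 17.0% of all genes tested. Blocked DESeq2 called the same 2 as higher, beside 4.31% of all genes. Smooth muscle and pericyte markers, 5 of 7 measured, ran from 2738 to 21451 in knockdown and from 5598 to 17133 in control libraries. Neural and Schwann markers, 4 of 7 measured, summed to between 138 and 895 in knockdown and between 72.7 and 571 in control libraries. That sum was higher in the knockdown of each Set, and Tubb3 made up much of it, at 110 to 836 in knockdown and 45.6 to 473 in control libraries. Endothelial markers, 3 of 8 measured, summed to between 25.1 and 30.6 in knockdown and between 22.2 and 49.9 in control libraries. The part of these cell types in the channel results was not tested, and in bulk RNA fewer cells of a type and less RNA per cell cannot be told apart.

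Of the 26 other TRP, mucolipin and polycystin family genes, 14 had a row and 8 passed the filter on low reads. Of these 8, 3 had a log2 fold change above 0 and 5 below, with a median of -0.40, against 0.30 for the 7 members, 5 of which were above 0, and 0.00044 for all genes tested, 50.1% of which were above 0. The members had been listed with the fold changes of this comparison known, so these medians are set side by side as a description only. The median of the 8 other family genes turned to 0.094 without knockdown library 3 and to 0.15 without Set 3. Limma, DESeq2 with the block and the authors' deposited table called 0 of them, beside 0.00808%, 9.76% and 9.31% of all genes. In limma 1 of them, Trpc2, had an unadjusted p under 0.05, beside 9.5% of all genes. Mcoln1, a calcium release channel of lysosomes, measured 653, 854, 771 and 1598 normalized counts in knockdown libraries 1 to 4, against 442, 761, 638 and 912 in control libraries 1 to 4. It was higher in all 4 Sets and highest in Set 4 in both groups, and its limma adjusted p was 0.720 at a log2 fold change of 0.45. Trpv1, the capsaicin receptor, had few reads and was also higher in all 4 Sets, at 48.5 ± 29.4 in knockdown and 26.9 ± 15.4 in control cells (SD, n = 4). Trpc2, a channel of rodent pheromone sensing, was lower without overlap, with 40.8 to 61.3 normalized counts in knockdown and 63.8 to 87.5 in control libraries. Its limma adjusted p was 0.525, and 6.34% of all genes tested had groups without overlap. Trpm1 measured 23.7 ± 20.6 in knockdown and 33.4 ± 21.5 in control cells (SD, n = 4). Trpc4, named after its values were seen, was found mainly in Set 4, at 206 in the knockdown and 31.9 in the control library, and at 0 in both libraries of Set 3.

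Genes for partners, trafficking and maturation of these channels went both ways, with 11 of 23 tested members above 0 and 12 below, and a median of -0.056. Limma called 0 of them, DESeq2 with the block 2 as higher and 1 as lower, and the authors' deposited table the same numbers, where that DESeq2 fit called 4.31% of all genes higher and 5.45% lower. Pacsin3, which binds Trpv4 and slows its uptake from the membrane, measured 935 ± 204 in knockdown and 666 ± 145 in control cells (SD, n = 4) and was higher in all 4 Sets. In the authors' deposited table its adjusted p is 0.0115, at a log2 fold change of 0.47. Os9, an endoplasmic reticulum protein that binds Trpv4, was the other higher one, at 0.38 in the authors' deposited table. Hax1, which binds polycystin 2, was lower without overlap, at 313, 278, 261 and 304 normalized counts in knockdown libraries 1 to 4, against 427, 421, 537 and 467 in control libraries 1 to 4. In the authors' deposited table the adjusted p of Hax1 is 0.00686, at a log2 fold change of -0.63. Sec63 and Dnajb11, protein import and folding factors that polycystin maturation needs, did not pass in the authors' deposited table (adjusted p 0.0742 and 0.0627). Sec63 measured 1775 ± 114 in knockdown and 2327 ± 213 in control cells, and Dnajb11 2499 ± 326 in knockdown and 3622 ± 872 in control cells (SD, n = 4).

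Calcium store and other entry genes had 14 of 26 tested members above 0 and 12 below, with a median of 0.018. Limma called 0 of them. Of the 27 with a row, both DESeq2 with the block and the authors' deposited table called 2 as higher, 1 of which (Piezo2) was below the filter on low reads, and 3 as lower, beside 9.76% of all genes in either direction in the DESeq2 fit and 9.31% in the authors' deposited table. Plcg1, the phospholipase that makes the lipid and calcium signals upstream of canonical TRP channels, measured 2476, 3602, 4028.5 and 3398 normalized counts in knockdown libraries 1 to 4, against 1585, 1973, 2413 and 1847 in control libraries 1 to 4. All knockdown libraries lay above all control ones. Its limma adjusted p was 0.347, or 0.0591 with the block, and in the authors' deposited table its log2 fold change is 0.75 with an adjusted p of 9.47e-07. Saraf, which damps store-operated entry, measured 2301 ± 744 in knockdown and 3403 ± 440 in control cells, and the store pump gene Atp2a2 11773 ± 3827 in knockdown and 16865 ± 3480 in control cells (SD, n = 4). The authors' deposited table lists both as lower, at log2 -0.56 and -0.51, beside the membrane pump gene Atp2b4 (-0.94), and lists the stretch channel gene Piezo2 as higher (0.96). Orai2, a pore gene of store-operated entry, measured 143 ± 25.4 in knockdown and 200 ± 39.2 in control cells (SD, n = 4) and was not called by limma, edgeR or DESeq2, with or without the block, or in the authors' deposited table.

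Calcium sensor and calcineurin genes had 10 of 19 tested members above 0 and 9 below (median 0.055), and primary cilium genes 14 of 27 above and 13 below (median 0.043). Limma called 0 in both lists, with 1 gene of the first and 2 of the second at an unadjusted p under 0.05, beside 9.5% of all genes. DESeq2 with the block and the authors' deposited table each called 1 gene of the first list, Camkk1, as higher and 1 of the second, Bbs4, as lower, beside 4.31% and 5.45% of all genes in the DESeq2 fit. Camkk1, a kinase switched on by calcium and calmodulin, measured 136, 176, 351 and 127 normalized counts in knockdown libraries 1 to 4, against 89.4, 85.0, 110 and 78.3 in control libraries 1 to 4, without overlap. Its log2 fold change in the authors' deposited table is 0.87, with an adjusted p of 0.00509. Bbs4, part of the complex that carries membrane proteins in and out of the cilium, measured 181, 147, 156 and 178 in knockdown libraries 1 to 4, against 234, 275, 415 and 438 in control libraries 1 to 4, also without overlap. In the authors' deposited table the adjusted p of Bbs4 is 0.00185, at a log2 fold change of -0.88. The calcineurin subunit gene Ppp3cb measured 610 ± 112 in knockdown and 446 ± 114 in control cells, Nfatc3 777 ± 95.5 in knockdown and 943 ± 97.1 in control cells, and Calm2 9704 ± 1190 in knockdown and 11589.6 ± 1093 in control cells (SD, n = 4). Among cilium genes Ift52 measured 278 ± 41.4 in knockdown and 342 ± 53.3 in control cells, Kif3b 1184 ± 127 in knockdown and 1409 ± 153 in control cells, and Inpp5e 151 ± 12.1 in knockdown and 212 ± 44.4 in control cells (SD, n = 4). None of these last 6 genes was called by limma, edgeR or DESeq2, with or without the block, or in the authors' deposited table.

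**Figure D4:**
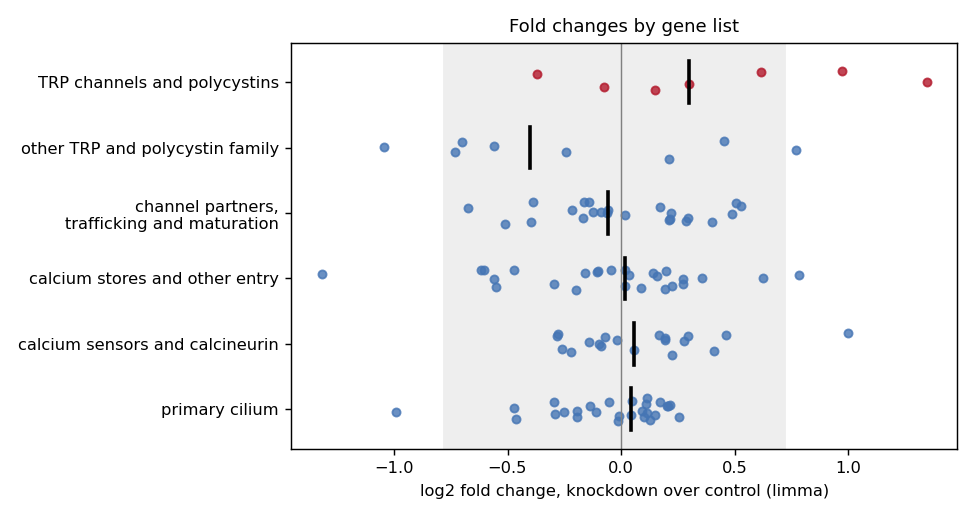
Log2 fold change, knockdown over control (limma), of the tested genes of the member list and of the 5 pathway lists, with the median of each list as a black bar and the range from the 5th to the 95th percentile of all genes tested (-0.78 to 0.72) in grey. Trpv2 and Trpv4 lie to the right of the grey range, as do Trpv1, Plcg1 and Camkk1, with Trpm3, Atp2b4 and Bbs4 to its left, and the medians of the last 4 lists lie close to 0.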

How the data were processed

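Per the labels' protocols, RNA was sequenced as single reads of 50 cycles. Novoalign 2.08.01, DESeq2 1.10.1 and build rn5 are named per the submitters' processing notes, without their roles, and no counter or annotation is named in the sources used here. The table's signal values, as deposited, are read counts that the authors divided by one factor per library: 100% of them were whole multiples of one step (tolerance 0.001 reads), and the recovered reads were used for count tests. The deposited log2 fold changes and adjusted p-values are the authors' own, per the file headers, with no adjusted p for 1362 genes. The main test was limma 3.58.1 with a trend on log2(value + 1), group only, 2-sided, Benjamini-Hochberg at 0.05 over the 12383 genes kept by filterByExpr of edgeR. Alternatives were the Set as a block, other pseudocounts, no filter, TMM, edgeR 4.0.16, DESeq2 1.42.0, and libraries or Sets left out (R 4.3.3). Same-numbered libraries deviated together from their group means (correlations of 0.681 to 0.805 over genes), so the Set, which the titles give, pairs them. Scripts were tested on simulated data. A symbol on several rows was read from the row with the most counts.

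The members and gene lists were chosen with earlier results of these data known. Genes named are the members, Nfat5, the 2 genes most like each member, and up to 4 genes of each list with the lowest limma p; genes of small counts of calls, neighbours on the genome and markers were named after their values were seen. The 4 erythroid markers listed were not analysed here.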

Additional observations from a re-analysis of the deposited data

Results flagged for a closer look

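Of 56 groups of 4 libraries (28 of the named genes, not all of them), 5 held a library that stood apart from the other 3 by Dixon's 95% limit, where chance gives about 1 group in 20. Trpv2 in knockdown library 4 was 2006 normalized counts, against 287 to 314 in the other knockdown libraries, and in control library 4 it was 683, against 99.7 to 140.5 in the other control libraries. Trpm4 in knockdown library 4 was 640.3, against 330.1 to 356 in the other knockdown libraries, and in control library 4 it was 380, against 225 to 238 in the other control libraries. These 4 values are all from Set 4. The calcineurin gene Ppp3cb in control library 1 was 616, against 368 to 403 in the other control libraries.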

How the results depend on the processing

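The calls differed between tests. Over all genes, limma called 0 as higher and 1 as lower, DESeq2 68 and 95, and DESeq2 with the Set as a block 518 and 656, or 202 and 255 without Set 4. Limma and edgeR with the block, and blocked limma without Set 4, called 0 in both directions. Blocked DESeq2 called 3 members (Trpv2 1.35, Trpv4 0.98, Trpm4 0.62) and without Set 4 called 1 (Trpv2 1.28); leaving out Set 4 was chosen after seeing the data. Other pseudocounts, no filter and TMM changed no member's call or direction. With single libraries or Sets left out, 0 members and 0 genes were called in limma, and log2 fold changes ran from 0.67 to 1.96 for Trpv2, 0.54 to 1.41 for Trpv4, 0.39 to 0.80 for Trpm4, 0.15 to 0.47 for Pkd1, -0.54 to -0.21 for Pkd2, -0.13 to 0.58 for Trpc1 and -0.24 to 0.059 for Trpm7. The lowest value of Trpv2 and Trpm4 came without knockdown library 4 and the highest without control library 4. Trpc1 was 0.49 without knockdown library 4, and turned to -0.11 without knockdown library 3 and -0.13 without Set 3, and Trpm7 to 0.0030 in blocked DESeq2 without Set 4. List medians ran from -0.61 to 0.15 (other family, 0.094 without knockdown library 3), -0.10 to 0.12 (partners, 0.055 without control library 2 and 0.015 without Set 3), -0.13 to 0.13 (stores), -0.077 to 0.22 (sensors) and -0.10 to 0.098 (cilium). The causes were not tested. Of the 7 members, depth limits Trpc1 (15 to 60 reads) most, and it was 0.28 in unblocked DESeq2, against 0.15 in limma.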
